A study of Mus musculus with 15 samples.

Results

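The acrosome formation and matrix genes are 10 genes, Acrv1, Spaca1, Spaca7, Acr, Zpbp, Zpbp2, Spam1, Lyzl6, Dpy19l2 and Tex36, chosen by symbol from the 32285 genes of the count matrices. All 10 were found, each as 1 row, and all 10 passed the filter on low counts in each comparison of T or R with UC. They were measured by single-cell RNA-seq of dissociated testes in 15 libraries, 1 library per DBA/2J male and 3 libraries in each of 5 groups. The study asked how JQ1, a small molecule that occupies the bromodomains of BRDT and related proteins, alters the male germ-cell transcriptome, and whether it returns after withdrawal.

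The acrosome is a secretory vesicle derived from the Golgi that spreads over the nucleus of the haploid spermatid and stays as a cap on the sperm head. Its matrix stores hydrolases and binding proteins that are released when sperm meet the egg coat, and its inner membrane is held to the nuclear envelope by a layer of cytoskeletal proteins. Much of its RNA is made in round spermatids, and for some of its genes in late meiosis, ahead of the shutdown of transcription in elongating spermatids.

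Males of group T were 10 wk old and had received JQ1 at 50 mg/kg by daily intraperitoneal injection for 3 wk, and their testes were taken at the end of dosing. Group VC-T received vehicle only and was taken at the same age. Males of group R had the same JQ1 course and were taken 6 wk after the last dose at 16 wk of age, with vehicle controls of the same age (VC-R). Untreated males (UC) were 15 wk old and served as controls for both T and R, so the T and R comparisons share their control mice, and in comparisons with UC age cannot be told apart from group. The comparisons of T with VC-T and of R with VC-R are matched for age. All 15 males were of the same inbred strain.

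After quality filters 72362 cells were kept of 101610 barcodes, from 2430 to 12744 per library. Libraries held between 9673587 and 98724982 UMIs (unique molecular identifiers, counted molecules), with a median of 2455 to 4202.5 per kept cell. Any pair of libraries shared at most 0.548% of the barcodes of the smaller one. The library labelled VC-T 1 held 0 spermatozoa-like cells where VC-T 2 and VC-T 3 held 845 and 1344, and T held 0, 1 and 2. The study left that library out of its tests, and the results against VC-T below are given with and without it. UC 1 stood apart in spermatocyte-like cells, where results are also given without it. A cluster of that class held 166 of its 520 cells, against 12 of 266 in UC 2, 35 of 456 in UC 3 and 2, 0 and 0 cells in T. The p-values measure the spread between these 3 mice per group.

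Cells were clustered without the 10 genes and named from marker genes that do not include them, as spermatogonia-like, spermatocyte-like, spermatid-like, spermatozoa-like and somatic classes, so that stage and member levels are separate measures. Germ cells were also ranked along a pseudotime, a computed order of maturation, cut into 51 bins, and spermatid-like cells were divided by rank into an early, a middle and a late window. Levels are given as CPM, the UMIs of a gene scaled to 1000000 UMIs of the summed cells of a class in a library. Fold changes come from edgeR on the summed counts with TMM scaling, which sets each library against the bulk of its genes. A gene was called when its adjusted p was under 0.05 and its log2 fold change was over 1 in size, and counts at the adjusted p alone are given beside the calls.

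The genes lie on 7 chromosomes of GRCm38, all annotated as protein coding. Acrv1, which codes for an acrosomal vesicle antigen, lies at chr9:36693220-36698843 on the plus strand. Dpy19l2, a protein of the inner nuclear membrane that anchors the acrosome, shares that chromosome at chr9:24557047-24696293 on the minus strand and overlaps Cypt4 on the other strand. Another 3 lie on chromosome 11. Zpbp and Zpbp2 code for a pair of related zona pellucida binding proteins of the acrosome, at chr11:11279626-11462408 on the minus strand and chr11:98551097-98558665 on the plus strand. Lyzl6, a lysozyme-like protein, lies at chr11:103631070-103638890 on the minus strand. Zpbp overlaps 4 annotated genes, Gm12598, Gm26458, Gm12599 and Spata48, of which Gm26458 lies on its own strand. Spaca7, a protein of the acrosomal matrix, lies at chr8:12573029-12600744 on the plus strand and overlaps D630011A20Rik on the other strand. Cell Ranger assigns reads to genes on the sense strand, so that Gm26458 is the overlap whose reads could bear on those of a member. Whole gene spans were compared, and whether exons overlap was not checked. Spaca1, a protein of the acrosomal membrane needed for the shape of the acrosome, lies at chr4:34024874-34050191 on the minus strand. Acr, the protease acrosin, lies at chr15:89568326-89574585 on the plus strand. Spam1, the sperm hyaluronidase PH-20, lies at chr6:24791188-24801048 on the plus strand, and Tex36, a testis-expressed gene, at chr7:133587024-133602158 on the minus strand.

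RefSeq promoter windows of GRCm38.p6, from 250 bases before to 50 bases after the gene start, matched 9 of the 10 genes. The 5 windows below are shown because 4 of them hold the cyclic AMP response element (CRE) half-site TGACG, in genes that differ in the stage at which they were first read, and the remaining one, Acrv1, holds repeats of GTGTGT. Capitals mark these letters on either strand (CGTCA and ACACAC are the reverse complements) and, in Tex36, also the X-box half-site GTTGCC read as GGCAAC. The windows are chr9:36692970-36693269 (plus strand) for Acrv1, chr4:34050016-34050315 (minus) for Spaca1, chr7:133602066-133602365 (minus) for Tex36, chr11:98550847-98551146 (plus) for Zpbp2 and chr9:24696244-24696543 (minus) for Dpy19l2. For Spaca1 the first of 2 listed windows is printed.
Acrv1: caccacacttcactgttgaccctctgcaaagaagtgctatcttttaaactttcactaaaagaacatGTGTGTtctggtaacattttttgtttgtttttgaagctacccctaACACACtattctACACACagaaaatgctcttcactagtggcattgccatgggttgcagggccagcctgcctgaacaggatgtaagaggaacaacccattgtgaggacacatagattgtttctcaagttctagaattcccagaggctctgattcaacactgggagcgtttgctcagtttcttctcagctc
Spaca1: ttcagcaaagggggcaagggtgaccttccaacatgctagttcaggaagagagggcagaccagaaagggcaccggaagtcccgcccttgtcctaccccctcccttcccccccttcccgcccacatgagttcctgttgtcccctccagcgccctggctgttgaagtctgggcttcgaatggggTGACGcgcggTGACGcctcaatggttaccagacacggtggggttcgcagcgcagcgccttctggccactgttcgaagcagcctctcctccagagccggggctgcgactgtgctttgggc
Tex36: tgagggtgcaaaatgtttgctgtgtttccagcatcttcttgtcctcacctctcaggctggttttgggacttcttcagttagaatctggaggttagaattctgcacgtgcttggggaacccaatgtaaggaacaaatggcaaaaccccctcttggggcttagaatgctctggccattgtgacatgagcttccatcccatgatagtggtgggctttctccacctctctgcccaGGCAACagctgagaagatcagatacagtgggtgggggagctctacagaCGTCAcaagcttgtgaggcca
Zpbp2: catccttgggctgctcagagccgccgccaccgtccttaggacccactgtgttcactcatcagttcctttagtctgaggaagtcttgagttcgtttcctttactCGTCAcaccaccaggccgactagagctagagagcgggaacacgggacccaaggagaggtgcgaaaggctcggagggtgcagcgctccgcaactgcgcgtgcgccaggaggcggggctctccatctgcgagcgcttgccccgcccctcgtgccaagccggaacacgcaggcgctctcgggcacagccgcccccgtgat
Dpy19l2: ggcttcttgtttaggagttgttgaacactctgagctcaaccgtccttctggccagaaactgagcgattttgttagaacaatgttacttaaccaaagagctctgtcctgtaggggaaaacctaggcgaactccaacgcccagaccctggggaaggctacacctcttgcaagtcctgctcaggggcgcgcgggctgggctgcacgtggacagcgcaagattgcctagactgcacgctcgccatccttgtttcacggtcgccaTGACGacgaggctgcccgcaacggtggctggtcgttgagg

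The half-site TGACG stood at -69 and -59 from the start of Spaca1, at -147 in Zpbp2, at +11 in Dpy19l2 and at +30 in Tex36, that is in 4 of 9 windows, against 20.8% of all 32851 windows. The full palindrome TGACGTCA, which contains the half-site, was in 0 of 9 windows and in 1.79% of all windows. GTTGCC was in the window of Tex36 alone at -19 (12.5% of all windows), and TATAAA in that of Spaca7 alone, read as TTTATA at -242 (13.6% of all windows). GTGTGT was in 2 windows, at -184, -139 and -127 in Acrv1 and at -173 in Spaca7, against 17.4% of all windows. A match gives the letters in these windows only.

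In untreated testis the members fell into 2 patterns by stage. Acrv1, Spaca1, Spaca7, Spam1, Lyzl6 and Tex36 were high in spermatid-like cells and low in spermatocyte-like cells, whereas Acr, Zpbp, Zpbp2 and Dpy19l2 were already present in spermatocyte-like cells. Dpy19l2 differed most from the rest, with its level falling from spermatocyte-like to spermatid-like cells. These are levels with no test between classes, since the classes share libraries.

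Among the spermatid genes, Acrv1 was at 487, 510 and 470.0 CPM in the spermatid-like cells of UC 1 to UC 3, against 47.1, 10.5 and 10.1 CPM in their spermatocyte-like cells. The lysozyme-like Lyzl6 was at 450, 446 and 407 CPM in spermatid-like and at 52.4, 12.0 and 11.7 CPM in spermatocyte-like cells. Both genes thus separated the stages in each library, and in both UC 1 had the highest spermatocyte-like level. Mean levels in the same order were 643 ± 46.2 against 46.6 ± 52.9 CPM for Spaca1 (SD, n = 3), 500.4 ± 24.4 against 27.9 ± 28.8 CPM for Spaca7, and 551 ± 53.7 against 34.5 ± 41.4 CPM for Tex36. The hyaluronidase gene Spam1 was at 114 ± 6.25 CPM in spermatid-like and 3.78 ± 2.24 CPM in spermatocyte-like cells. As ratios of the means the 6 genes stood 13.8 (Spaca1) to 30.1 times (Spam1) higher in spermatid-like cells. UC 1 raised the spermatocyte-like means, as for Spaca1, which ran from 15.8 CPM in the lowest library to 108 CPM in UC 1. Without UC 1 the ratios of Spaca1, Acrv1 and Lyzl6 would be larger, so their sizes and order rest on that library.

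Zpbp2 was at 462, 464 and 520.2 CPM in spermatocyte-like and at 298, 272 and 324 CPM in spermatid-like cells of UC 1 to UC 3. Dpy19l2 was at 186, 217 and 204 CPM in spermatocyte-like and at 57.5, 46.4 and 60.9 CPM in spermatid-like cells. The 2 classes did not overlap for either gene. By window, Zpbp2 was at 603.5 ± 51.3 CPM early, 563 ± 40.8 CPM in the middle and 174 ± 56.1 CPM late (SD, n = 3). On the means, its early and middle windows were thus above the spermatocyte-like level, and the late window held 1560 of 2482 UC spermatid-like cells. Dpy19l2 was at 114 ± 31.9, 102 ± 1.81 and 32.3 ± 10.8 CPM. Of these genes only Dpy19l2 stood higher in spermatocyte-like cells than in every window. For Zpbp the levels were 417 ± 18.9 CPM in spermatocyte-like and 382 ± 17.2 CPM in spermatid-like cells, a difference of about the spread between the 3 mice. Acr, the gene of acrosin, was at 176 ± 11.5 and 244 ± 1.88 CPM.

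In spermatozoa-like cells of UC the levels were lower for all members, from 9.35 ± 0.999 CPM for Spam1 to 150 ± 8.98 CPM for Spaca7 (SD, n = 3). Spaca7 kept the most of its spermatid-like level, 3.34 times lower on the means, whereas Tex36 and Acrv1 were 17.3 and 17 times lower. Spermatogonia-like cells held 6.76 ± 2.51 CPM of Spam1 and up to 86.0 ± 5.12 CPM of Zpbp.

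Sertoli cells, somatic cells that do not make an acrosome, were used to set a background level, and where their UMIs of these genes came from was not tested. In Sertoli-like cells of UC (28, 45 and 94 cells) the 10 genes summed to 1288 ± 826 CPM (SD, n = 3, from 679 to 2228), against 1439 ± 118 CPM in spermatocyte-like, 3711 ± 123 CPM in spermatid-like and 406 ± 38.7 CPM in spermatozoa-like cells. The Sertoli-like sum was 2228 CPM in UC 1, 958 CPM in UC 2 and 679 CPM in UC 3, so its mean would be lower without UC 1. The class pooled a larger and a smaller cluster, and the smaller held 2, 13 and 53 of the cells of UC 1 to UC 3. The spermatid-like means of all 10 members were above the Sertoli-like means, by 1.68 times (Zpbp2) to 4.34 times (Spaca7). In spermatocyte-like cells Acr, Zpbp, Zpbp2 and Dpy19l2 were 1.58 to 6.57 times the Sertoli-like mean, and the other 6 genes were at 0.242 times or less. Acr, at 165 to 188 CPM there, lay within the Sertoli-like range of 49.6 to 220 CPM, and Zpbp2, at 272 to 324 CPM in spermatid-like cells, lay within one of 90.9 to 330 CPM. In spermatozoa-like cells 9 members were below it, and Spaca7, at 150 against 115 ± 49.9 CPM, was within its spread. The level is not one that all classes share, since UC spermatogonia-like cells summed to 318 ± 49.1 CPM. Values at or under the Sertoli-like mean are not read here as expression.

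**Figure D1:**
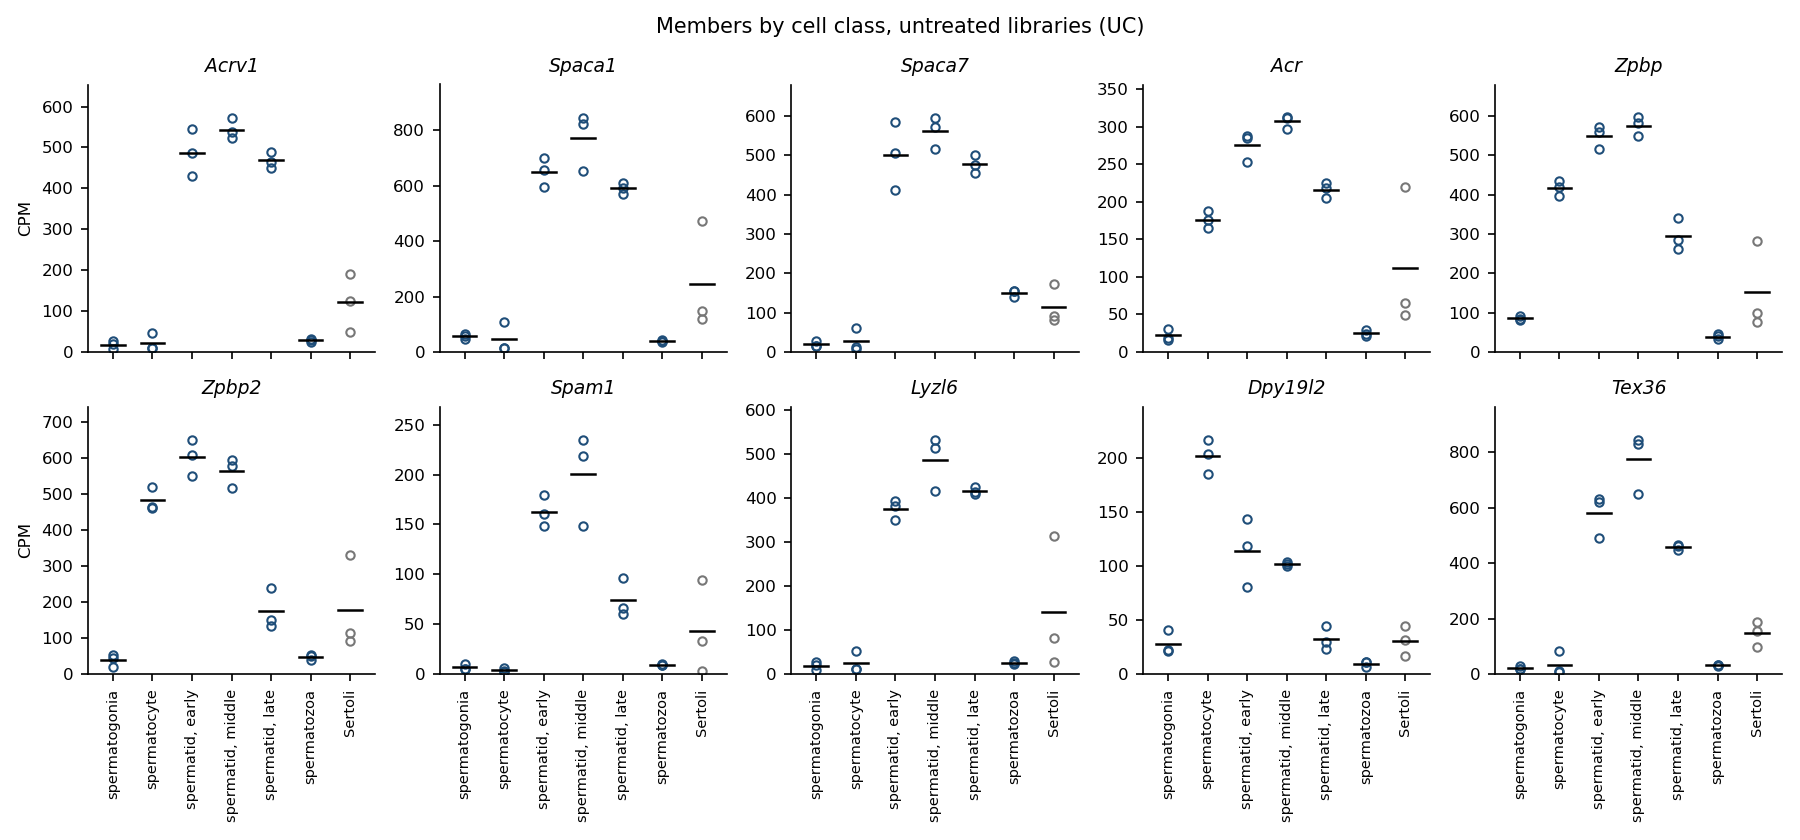
Levels of the 10 genes in untreated testis, in CPM, for the 3 UC libraries (points) and their mean (bar). Columns are germ-cell classes, with spermatid-like cells split into early, middle and late windows, and Sertoli-like cells. Dpy19l2 is highest in spermatocyte-like cells, at 202 CPM on average, and Zpbp2 in the early window, at 603.5 CPM against 482 CPM in spermatocyte-like cells. Acrv1 goes from 22.6 CPM in spermatocyte-like cells to 487 CPM in the early window.

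Along pseudotime, the rank of germ cells from meiosis to the last haploid stages, UC libraries had at least 10 cells from bin 7 to bin 49. Acrv1, Spaca1 and Spaca7 first reached 10% of their highest mean in bin 12, and Spam1, Lyzl6 and Tex36 in bin 13. Acr, Zpbp, Zpbp2 and Dpy19l2 were above that mark in bin 7, the first bin with a UC value. The onsets of the spermatid genes therefore lay within neighbouring bins, between bin 12 and bin 13 in single UC libraries except for Tex36, whose onset ran up to bin 15.

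The highest UC means came in bin 15 for Zpbp2, at 662 CPM, in bin 21 for Spam1, at 212 CPM, and in bin 22 for Zpbp, at 591 CPM, although the peaks of single libraries lay in bins 15 to 21 for Zpbp, so that its place after Spam1 is not given by them. They came in bin 24 for Spaca7, Acr and Tex36, at 581, 332 and 813 CPM, in bin 26 for Acrv1 and Lyzl6, at 645 and 621 CPM, and in bin 27 for Spaca1, at 899 CPM. Bins of the 3 libraries overlapped between these later genes, with peaks from bin 26 to 27 for Acrv1, 25 to 28 for Spaca1 and 15 to 28 for Spaca7. The late members of this order hence do not differ beyond their spread. For Dpy19l2 the mean was highest in bin 8, at 253 CPM, whereas the peaks of single libraries lay in bins 13 to 19. The bin of its peak is therefore not given by them. Its level was under 50% of the peak after bin 21, ahead of the other 9 genes, which left that range between bin 26 (Zpbp2) and bin 31 (Spaca7).

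VC-R, which had cells from bin 0 on, gave a second view of the early bins. There Dpy19l2 peaked in bin 1, at 261 CPM, with single libraries between bins 1 and 4. Zpbp and Zpbp2 started at 262 and 245 CPM in bin 0 and peaked in bins 15 and 11, at 660 and 781 CPM. Acrv1, Spaca1, Spaca7, Spam1, Lyzl6 and Tex36 all reached 10% of their peaks in bin 12, as in UC or 1 bin earlier. The 2 control groups thus gave the same 2 patterns.

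**Figure D2:**
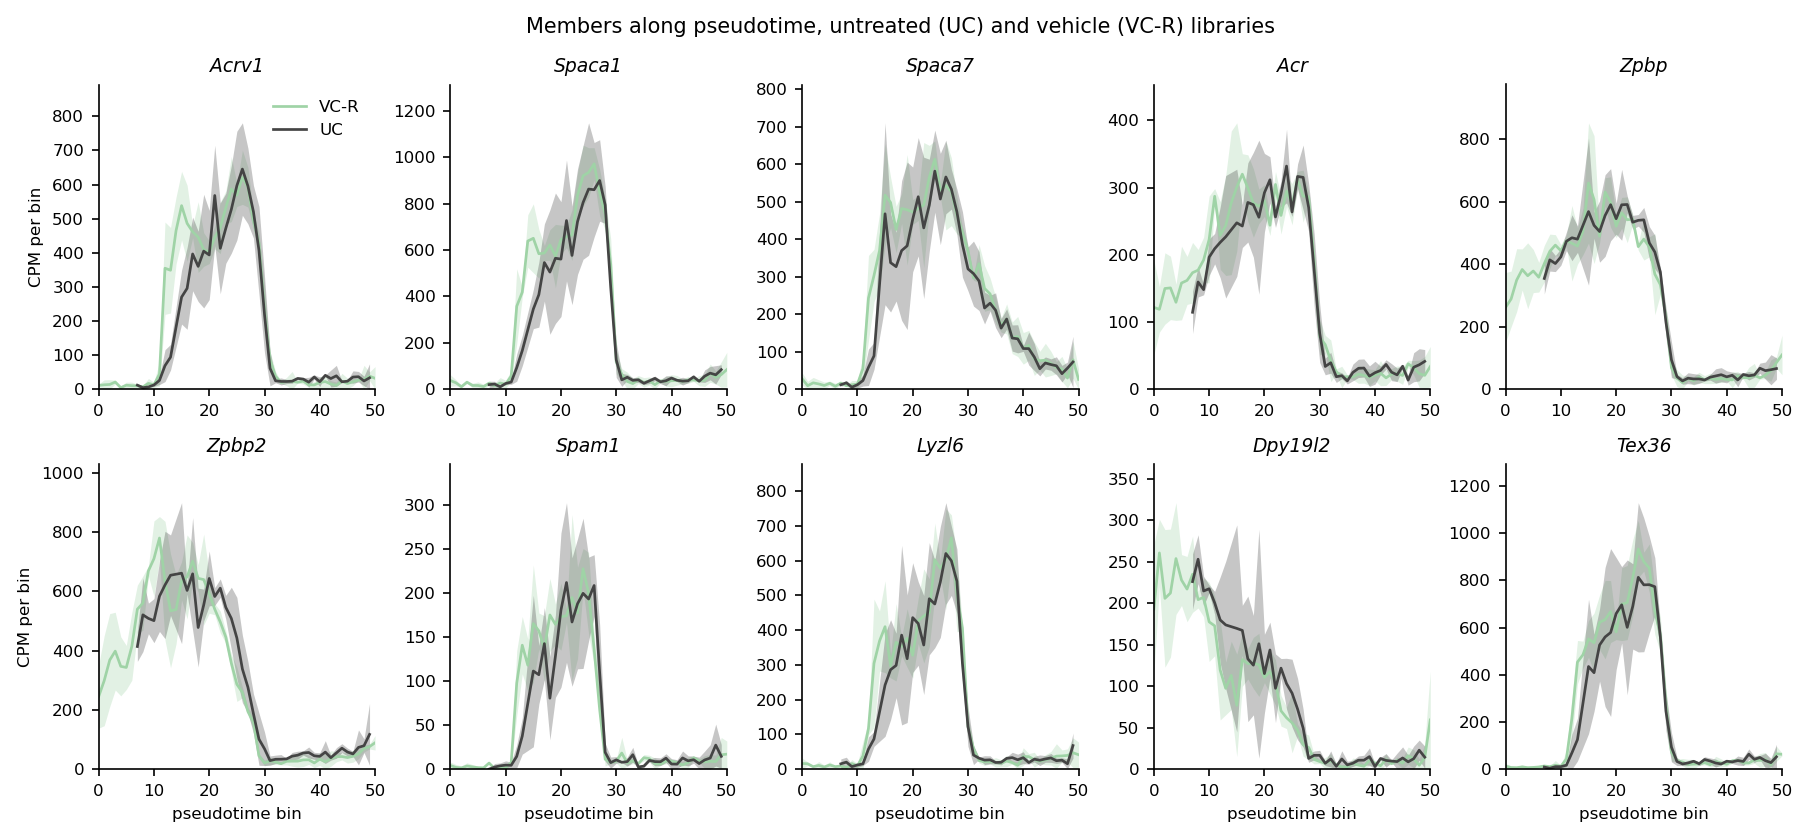
Mean level in CPM of each gene by pseudotime bin in UC and VC-R, with SD over libraries shaded and only bins with at least 10 cells in a library. Dpy19l2 is high at the start and low after bin 21, and the 6 spermatid genes rise in bins 12 to 13 and peak between bins 21 and 27 in UC.

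Over the 51 bins of the summed UC libraries, Pearson correlations of log2 levels described how alike the members were, with points that share libraries and depth. Each member against the mean of the other 9 gave r = 0.91 for Spaca1, 0.88 for Lyzl6, 0.86 for Tex36 and 0.82 for Acrv1. At the other end r was 0.49 for Spaca7, which declined later than the rest, and 0.39 for Dpy19l2, which declined earlier. Among 12260 other genes, the 5 most like the mean of the members were Ramac (r = 0.98), Tekt2 (0.98), Gtsf2 (0.97), Tekt4 (0.97) and Ccdc105 (0.97). Tekt2 and Tekt4 code for tektins, filament proteins of sperm tail microtubules, and Ramac for the activating subunit of the mRNA cap methyltransferase.

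The first comparison asked how the members stood at the end of JQ1 dosing in the testis as a whole, with all kept cells of a library summed. In such sums fewer cells of a type and less RNA per cell cannot be told apart, and T libraries held 0 to 2 spermatozoa-like cells. By edgeR, 0 of 10 members were called in T against UC, where 21.7% of 17707 genes were called, 8 members had an unadjusted p under 0.05, and DESeq2 also called 0. At the adjusted p alone 3 members were higher, Zpbp, Zpbp2 and Dpy19l2, against 29% of all genes, and 4 were lower, Acrv1, Spaca7, Lyzl6 and Tex36, against 29.8%. RLE size factors, DESeq2 and no filter each left 2 higher. Zpbp passed in 2 and Tex36 in 4 of 7 alternative settings, where library totals and single libraries left out are not counted. The median log2 fold change was -0.16 over the members and 0.07 over all genes. Against VC-T 2 and VC-T 3, 3 members were higher and 1 lower at the adjusted p alone, where 4789 of 19039 genes were higher and 6011 lower, and against all 3 VC-T libraries 0 were either by edgeR, with 1 at an unadjusted p under 0.05.

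Dpy19l2 was at 81.8, 66.0 and 76.0 CPM in UC and at 161, 181 and 173 CPM in T. Zpbp2 was at 263, 209 and 261 CPM in UC and at 514, 545 and 467 CPM in T. For both genes every T library was above every UC library, with log2 fold changes of 0.60 ± 0.10 (SE, adjusted p = 2.71e-04) and 0.46 ± 0.11 (adjusted p = 3.53e-03). Spaca7 was at 218, 238 and 223 CPM in UC and at 224, 174 and 203 CPM in T, so that the groups overlapped. Its log2 fold change was -0.79 ± 0.10 (adjusted p = 4.03e-05). Library totals in place of TMM moved the median of all genes up by 0.60 and ended this order. On that scale 7 members were higher and 0 lower at the adjusted p alone, where 10305 of 17707 genes were higher and 3195 lower. Zpbp2 (1.06) and Dpy19l2 were called among 7284 of 17707 genes, Acrv1, Spaca1, Spam1, Lyzl6 and Tex36 turned to 0.09, 0.36, 0.54, 0.13 and 0.33, and Spaca7 was at -0.18. Of all calls, 10.4% were higher with TMM and 68.3% with library totals.

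In spermatocyte-like cells 3 of the members, Zpbp, Zpbp2 and Dpy19l2, were above every UC Sertoli-like value in each UC library, Acr was above their mean only, and none of these genes passed the test in T against UC. By edgeR 0 of 10 members were called in T against UC, where 1.5% of 11988 genes were called, 2 members had an unadjusted p under 0.05, and DESeq2 called 0. Zpbp2 was at 462, 464 and 520.2 CPM in UC and at 509, 542 and 460.1 CPM in T, a log2 fold change of -0.08 ± 0.08 (SE, adjusted p = 0.594). Dpy19l2, Zpbp and Acr had log2 fold changes of -0.03 ± 0.06, -0.16 ± 0.05 and -0.17 ± 0.06, with adjusted p of 0.78, 0.13 and 0.17. The groups overlapped for all 4 genes. Against VC-T 2 and VC-T 3 Zpbp2 passed as lower, at -0.37 ± 0.10 (adjusted p = 0.025), where 1339 of 12343 genes were lower at the adjusted p alone. Against all 3 VC-T libraries 0 of 10 members passed by edgeR or had an unadjusted p under 0.05. Library totals moved the median of all genes by 0.14 and the share of calls that were higher from 44.4% to 58.4%, and Zpbp2 and Dpy19l2 turned to 0.06 and 0.11.

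Among the other 6 genes, Spaca1 and Acrv1 were called without UC 1 and not with it, and the other 4 passed in neither. Spaca1 was at 108, 15.8 and 16.4 CPM in UC and at 66.4, 29.7 and 41.6 CPM in T, all of them below the mean level of 246 CPM in UC Sertoli-like cells. UC 1 was the highest library and the T libraries were above UC 2 and UC 3. In the cluster that held 166 cells of UC 1, Spaca1 was at 349.7 CPM in UC 1, 26.9 CPM in UC 2 and 24.3 CPM in UC 3. The log2 fold change was -0.21 ± 0.75 (SE, adjusted p = 0.90) with UC 1 and 1.39 ± 0.32 (adjusted p = 0.025) without it. Without UC 1, 2 members were called, Spaca1 and Acrv1 (1.12 ± 0.30), where 397 of 12453 genes were called. Against VC-T 2 and VC-T 3 there were 4 (Acrv1 1.90, Spaca1 1.92, Spaca7 1.40 and Lyzl6 1.97), where 702 of 12343 genes were called, and against all 3 VC-T libraries 0. With cells matched on pseudotime there was 1 (Spaca1, 1.21), where 158 of 8072 genes were called. The levels of the whole class are under the Sertoli-like mean and are not read as expression, and the parts of free RNA and of that cluster in these differences were not tested.

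In spermatid-like cells, where the sum of the members is highest, all 10 RNAs were present in JQ1-treated testes. T had 2130, 1356 and 827 such cells and UC 675, 699 and 1108. By edgeR 0 of 10 members were called, where 20.6% of 13454 genes were called, 6 members had an unadjusted p under 0.05, and DESeq2 called 0. At the adjusted p alone 2 members were higher, Zpbp2 and Dpy19l2, against 26.5% of all genes, and 3 were lower, Acrv1, Spaca7 and Lyzl6, against 29.8%. The median log2 fold change was -0.08 over the members and 0.05 over all genes.

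Zpbp2 was at 298, 272 and 324 CPM in UC and at 534, 571 and 524 CPM in T. The T libraries all lay above the UC libraries, with a log2 fold change of 0.51 ± 0.07 (SE, adjusted p = 1.59e-05). Dpy19l2, the nuclear anchor of the acrosome, was at 57.5, 46.4 and 60.9 CPM in UC and at 101, 109 and 106 CPM in T, again with no overlap (0.58 ± 0.10, adjusted p = 1.13e-04). Over the whole class of UC both genes stood lower than in spermatocyte-like cells. So did the mean of Zpbp, which did not pass here. In the early and middle windows of UC, however, the means of Zpbp2 (603.5 and 563 CPM) and Zpbp (549 and 575 CPM) were above their spermatocyte-like means (482 and 417 CPM). Dpy19l2 was lower in both windows (114 and 102 against 202 CPM). The T cells of this class had an earlier median pseudotime rank, 0.350 to 0.434 against 0.516 to 0.526 in UC on a scale from 0 to 1. The clusters that make up the class also differed in share, and the one with a median rank of 0.599 held 208, 250 and 302 cells of UC and 1, 0 and 3 of T.

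Acrv1 was at 487, 510 and 470.0 CPM in UC and at 502, 480.3 and 465 CPM in T, so that the libraries overlapped on CPM. Relative to the bulk of genes it was lower, by -0.38 ± 0.07 (SE, adjusted p = 3.61e-04). Spaca7 and Lyzl6 were likewise lower by TMM, at -0.32 ± 0.07 and -0.34 ± 0.07 (adjusted p = 1.73e-03 and 9.36e-04), with overlapping CPM values. The other 5 members did not pass, with log2 fold changes from -0.09 ± 0.07 for Acr to 0.16 ± 0.08 for Spam1. Spaca1 was at 681, 655 and 592 CPM in UC and at 785, 761 and 790.0 CPM in T, separate on CPM and at -0.08 ± 0.07 by TMM (adjusted p = 0.343).

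With library totals, which moved the median of all genes by 0.36, 7 members were higher and 0 lower at the adjusted p alone, where 6831 of 13454 genes were higher and 2803 lower, with Zpbp2 at 0.86 and Dpy19l2 at 0.93. Acrv1 came to -0.02, and Spaca1, Spaca7, Acr, Lyzl6 and Tex36 turned to 0.28, 0.05, 0.27, 0.02 and 0.29. The share of all calls that were higher went from 19.9% to 53.3%. Where T and UC cells were drawn in equal numbers from each pseudotime bin, 0 members passed in either direction and 0 had an unadjusted p under 0.05. Zpbp2 was then at -0.15 ± 0.09 and Dpy19l2 at 0.05 ± 0.14, and 129 genes were called by fold and adjusted p. That draw used fewer cells, and the share of all genes that passed the adjusted p alone is not given here. The absence of passing members is therefore not read as equal levels. Against VC-T 2 and VC-T 3, Zpbp2 (0.65 ± 0.11) and Dpy19l2 (0.78 ± 0.11) remained higher, Spam1 passed at 0.39 ± 0.12, and 0 were lower, where 2827 of 14415 genes were higher and 4130 lower. Against all 3 VC-T libraries 0 passed by edgeR or had an unadjusted p under 0.05.

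**Figure D3:**
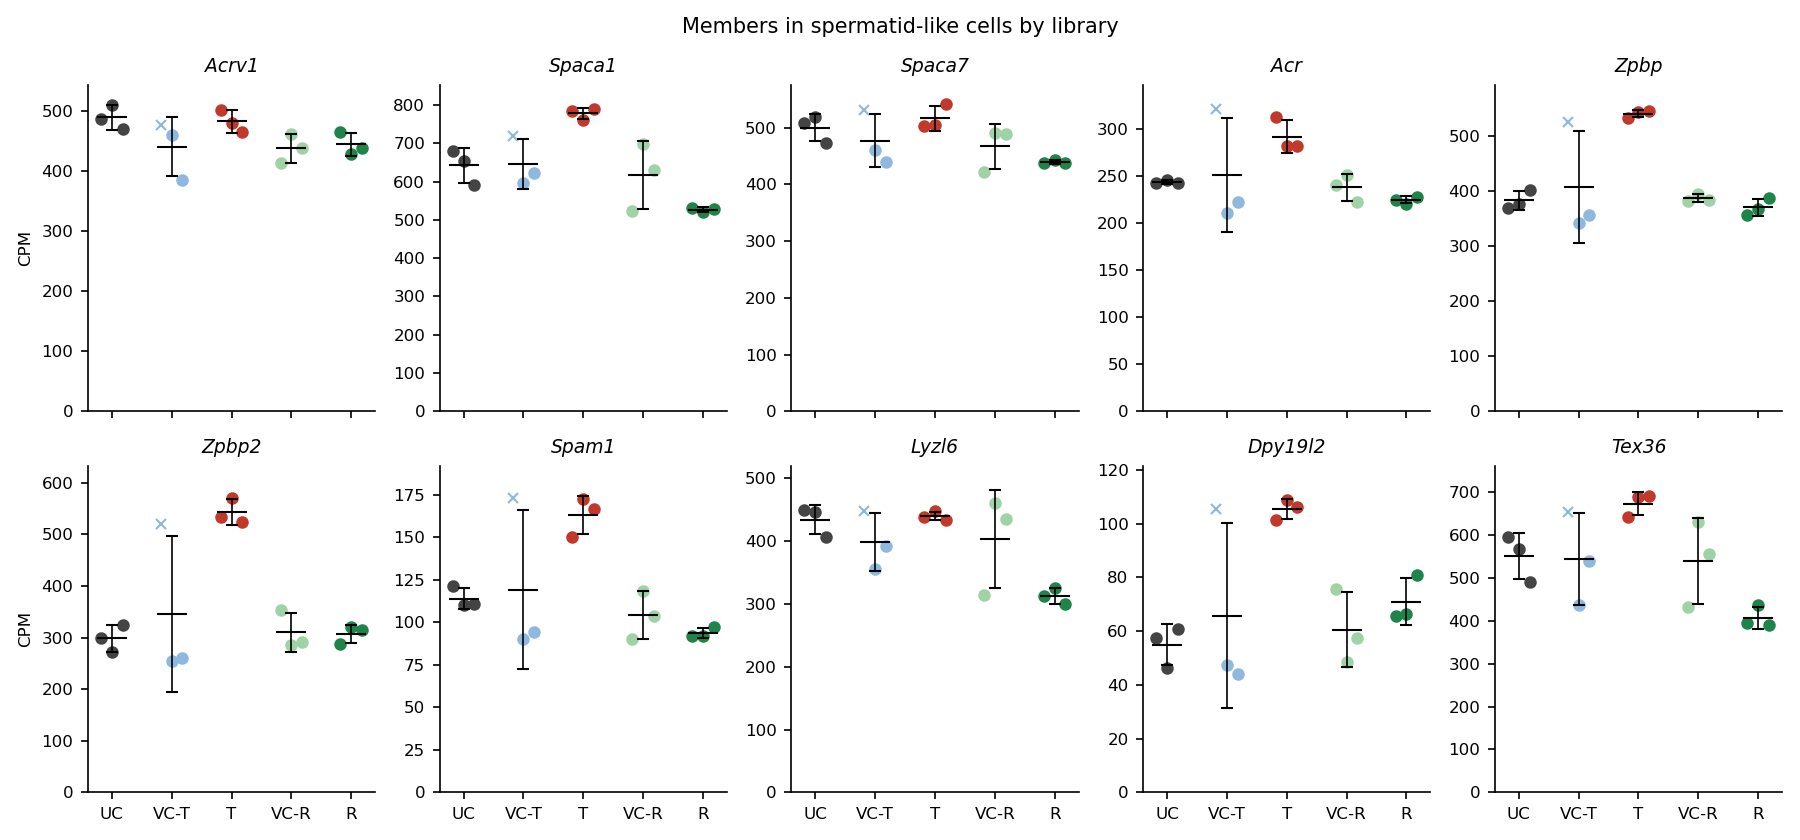
Level of each gene in spermatid-like cells of every library, in CPM, by group, with mean and SD as bars and a cross for the library labelled VC-T 1. Zpbp2 is at 524 to 571 CPM in T against 272 to 324 CPM in UC, and the cross lies near the T libraries for Zpbp2 (520.1 CPM) and Dpy19l2 (105 CPM).

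Within the early window of spermatid-like cells 0 of 10 members were called in T against UC by edgeR, where 2.59% of 7422 genes were called. An unadjusted p under 0.05 was found for 1 member, and DESeq2 called 0. In the middle window 0 of 10 were called, where 1.69% of 9070 genes were called, 4 members had an unadjusted p under 0.05, and DESeq2 called 0. Without UC 3, 4 members were lower in the middle window at the adjusted p alone, Spam1 (-0.46), Tex36 (-0.32), Lyzl6 (-0.27) and Acrv1 (-0.25), where 613 of 9641 genes were lower. Zpbp2 was at 651, 610 and 549 CPM in the early window of UC and at 690, 677 and 591 CPM in that of T, so that the groups overlapped (log2 fold change 0.13). Dpy19l2 was at 119, 80.5 and 144 CPM in UC and at 130, 123 and 130 CPM in T, which also overlapped. Over the whole class every T library lay above every UC library on CPM for 7 members, these and Spaca1, Acr, Zpbp, Spam1 and Tex36, and for 0 members within either of these windows. Acrv1 in both windows and Zpbp in the middle one had every T library below every UC library. The median log2 fold change of the members was 0 in the early and -0.14 in the middle window, against 0.02 and 0.01 over all genes. In the middle window the share of calls that were higher was 47.7% with TMM and 58.2% with library totals.

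The late window differed. T had 499, 93 and 39 cells there, with median ranks of 0.510 to 0.520 against 0.553 to 0.574 in UC, so that T cells also lay earlier within the window, and the cluster with a median rank of 0.599 was nearly absent from T, with 1, 0 and 3 cells. By edgeR 0 of 10 members were called, where 14.3% of 10476 genes were called, 5 members had an unadjusted p under 0.05, and DESeq2 called 0. At the adjusted p alone 4 members were higher, Spaca1, Zpbp2, Spam1 and Tex36, against 6.58% of all genes. RLE size factors and DESeq2 each left 2 higher. Spaca1 and Tex36 each passed in 3 of 9 alternative settings, and Spam1 and Zpbp2 in 8 of them. Library totals and single libraries left out are not counted there. The median was 0.38 over the members and 0.07 over all genes.

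Spam1, the hyaluronidase gene, was at 66.3, 60.7 and 96.4 CPM in UC and at 156, 206 and 184 CPM in T. Each T library was above each UC library, with a log2 fold change of 0.92 ± 0.19 (SE, adjusted p = 3.00e-03). Zpbp2 was at 151, 133 and 238 CPM in UC and at 396, 290 and 360.4 CPM in T (0.68 ± 0.18, adjusted p = 0.0136), where the UC mean of 174 CPM is under the UC Sertoli-like mean of 178 CPM. Spaca1, of the acrosomal membrane, was at 610, 590 and 568 CPM in UC and at 964, 1068 and 956 CPM in T (0.43 ± 0.13, adjusted p = 0.0242). Tex36 was at 467, 461 and 448 CPM in UC and at 700, 829 and 809 CPM in T (0.42 ± 0.13, adjusted p = 0.0338). None of the 4 genes had overlapping groups on CPM, nor had Acr, Acrv1, Lyzl6 and Zpbp, which did not pass. By TMM Spaca7 was at -0.12 ± 0.14 and Acrv1 at -0.02 ± 0.13. In UC the 4 genes were lower in the late than in the middle window, at 74.5 against 200.4 CPM for Spam1 and 459 against 775 CPM for Tex36. The part of the earlier T ranks and of that cluster in these values was not tested.

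The number of higher members in this window moved with the settings, from 0 against all 3 VC-T libraries to 9 with library totals. Library totals shifted the median of all genes by 0.35, and 2587 of 10476 genes were higher and 1252 lower at the adjusted p alone. They called Zpbp2 (1.01) and Spam1 (1.25) among 2090 of 10476 genes. Acrv1 then turned to 0.32. The share of all calls that were higher was 16.4% with TMM and 54.7% with library totals. Against VC-T 2 and VC-T 3, 3 members were called, Zpbp2 (1.19), Spam1 (1.68) and Dpy19l2 (1.28), of which Zpbp2 and Dpy19l2 lay in the VC-T 2 and VC-T 3 late window under the VC-T Sertoli-like means of 200 and 36.9 CPM, where 3910 of 11346 genes were called, whereas with all 3 VC-T libraries as controls 0 passed the adjusted p. Leaving out T 1 or UC 3 gave 1 call each, where 860 of 10279 and 2698 of 10598 genes were called. Without T 2 or UC 1 there were 2 higher members and without UC 2 there was 1, in a range of 1 to 6 over single libraries left out.

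**Figure D4:**
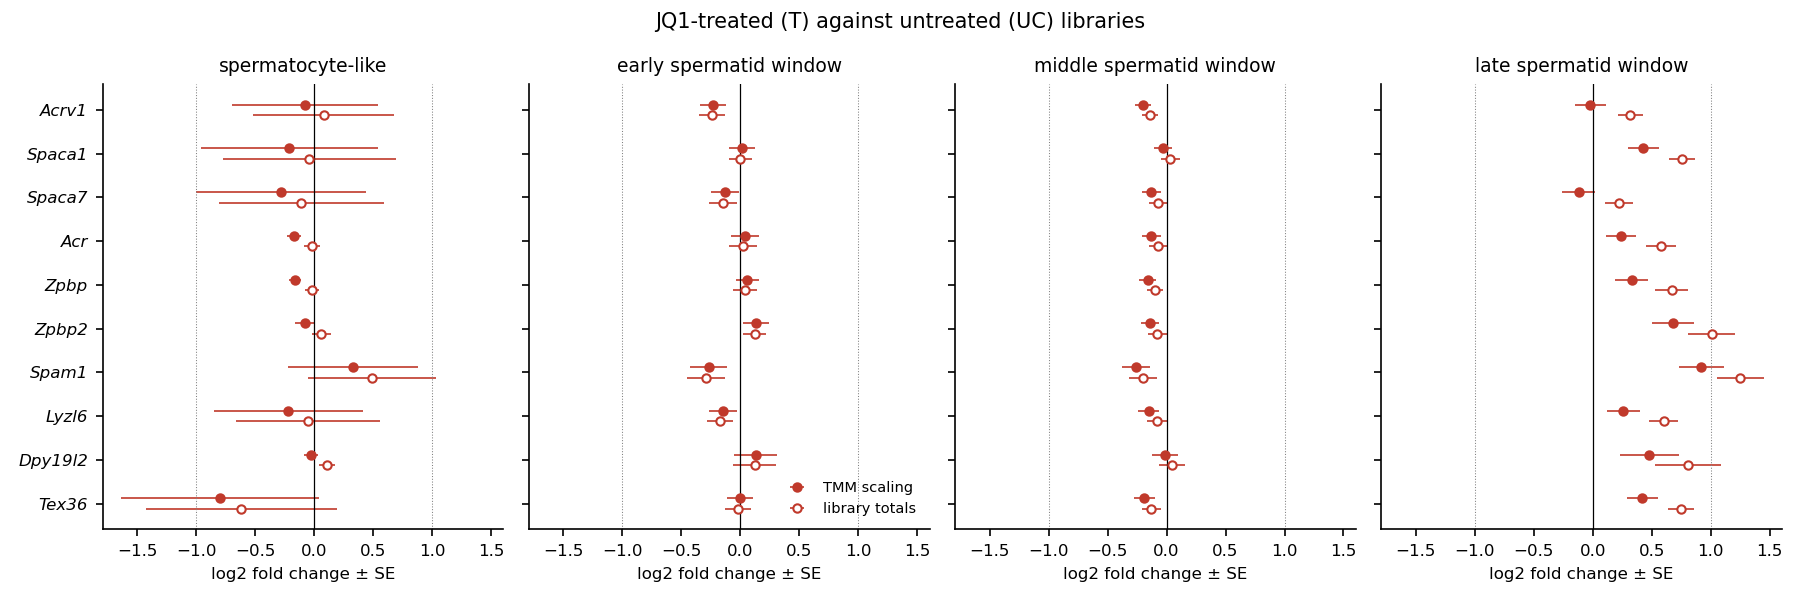
Log2 fold change of T against UC (± SE) for each gene in spermatocyte-like cells and in the early, middle and late window of spermatid-like cells, with TMM (filled) and with library totals (open), and dotted lines at 1 and -1. With TMM the values run from -0.27 (Spam1) to 0.13 (Zpbp2 and Dpy19l2) in the early window and from -0.26 (Spam1) to -0.01 (Dpy19l2) in the middle window, and in the late window from -0.12 (Spaca7) to 0.92 (Spam1) with TMM, where Acrv1 goes from -0.02 to 0.32 with library totals.

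The library labelled VC-T 1 followed the T libraries. In its spermatid-like cells Zpbp2 was at 520.1 CPM and Dpy19l2 at 105 CPM, against 256 and 261 CPM and 47.6 and 44.1 CPM in VC-T 2 and VC-T 3. The mean of all 3 VC-T libraries was 346 ± 151 CPM for Zpbp2 (SD, n = 3), and the spread came from that library. In its late window Spaca1 was at 963 CPM and Spam1 at 163 CPM, against 522 and 547 CPM and 32.8 and 43.1 CPM in the other two.

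The rest of the acrosome pathway was followed in 32 other genes, 18 of biogenesis and attachment and 14 of the matrix and membrane. In whole T libraries 0 were called higher and 9 lower of 32, where 21.7% of all genes were called, and library totals gave 4 higher and 7 lower. At the adjusted p alone 6 were higher and 19 lower, against 29% and 29.8% of all genes. In spermatid-like cells 1 was called higher and 5 lower of 31 tested, where 20.6% of all genes were called. At the adjusted p alone 4 were higher and 21 lower, against 26.5% and 29.8% of all genes, and with library totals 11 were higher and 12 lower, where 6831 of 13454 genes were higher and 2803 lower. With cells matched on pseudotime 0 of 30 were called higher or lower by edgeR, 2 were lower at the adjusted p alone, and the list's median went from -0.39 to -0.03 (log2 fold change). Of the 10 members 0 were called in either. Prss37, a protease-like protein of the acrosome, had a log2 fold change of -3.93 ± 0.24 in spermatid-like cells (SE, adjusted p = 1.62e-09), and Ccin, the head cytoskeleton protein calicin, one of -2.24 ± 0.13 (adjusted p = 1.05e-09). Spaca9 was at -1.89 ± 0.08, Tbc1d20, a GTPase activator for Rab proteins, at -1.55 ± 0.11. Actl9, an actin-like protein of the acrosome, went from 206 ± 12.4 CPM in UC to 92.6 ± 7.07 CPM in T (SD, n = 3). With library totals the 5 genes were at -3.57 to -1.14. Gopc, a Golgi protein needed for acrosome assembly, rose by 1.48 ± 0.37 from a UC level of 1.43 ± 0.977 CPM (SD, n = 3), low against its 48.8 ± 8.11 CPM in spermatocyte-like cells. At Leiden resolution 0.8, 0 genes of the list were called higher in spermatid-like cells, so this call ended.

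Of these genes, Spaca9, Actl9 and Tbc1d20 were at 1314 ± 23.9, 186 ± 7.77 and 488 ± 31.3 CPM in spermatozoa-like cells of UC, beside spermatid-like levels of 1447 ± 115, 206 ± 12.4 and 125 ± 8.38 CPM (SD, n = 3). Ccin and Prss37 were at 40.7 ± 2.20 and 87.2 ± 7.26 CPM there, beside 227 ± 21.5 and 179 ± 22.4 CPM. The most abundant uncalled genes of the list were Crisp2 (-0.26 ± 0.06), Spink2 (-0.01 ± 0.06), Pdcl2 (0.00 ± 0.07) and Fam209 (-0.52 ± 0.08). With library totals Crisp2, Spink2 and Pdcl2 turned to 0.11, 0.35 and 0.36. In the early and in the middle window 0 genes of the list were called in T by edgeR, of 28 and 29 tested, 12 in each had an unadjusted p under 0.05, and DESeq2 called 0. In the early window Zp3r was called as lower with RLE size factors, with library totals and without T 2, UC 1 or UC 2, where it was at -1.11 without UC 2. In the late window 5 were lower of 30 tested, Prss37 (-2.29), Tbc1d20 (-1.78), Atg7 (-1.17), Ccin (-1.12) and Spaca9 (-1.01), where 14.3% of all genes were called. Library totals left 2 lower, with Atg7, Ccin and Spaca9 at -0.82, -0.77 and -0.68, and Leiden resolution 0.8 also left 2. Leaving out T 1 or UC 1 left 3. Against all 3 VC-T libraries 0 genes of the list were called in whole libraries, spermatid-like cells or the late window. In R spermatid-like cells 0 of 31 were called by edgeR or DESeq2, although Gopc was called as higher with library totals (1.12) and without UC 3 (1.69), and 22 had an unadjusted p under 0.05. At the adjusted p alone 18 of the 31 were lower, against 17.3% of all genes, and 2 were higher. With library totals 12 were lower and 3 higher, where 911 of 15077 genes were lower and 4402 higher. With cells matched on pseudotime 12 were lower and 5 higher of 30, where 1834 of 12022 genes were lower and 2452 higher. The list was written with earlier results of these data known, and the counts are a description of it.

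After withdrawal the members were asked about again in R against the same UC libraries. In spermatocyte-like cells 0 of 10 were called by edgeR, where 0% of 12868 genes were called and 1056 genes but 0 members had an unadjusted p under 0.05, and DESeq2 called 0. Dpy19l2 was at 240.3, 211 and 216 CPM in R and Zpbp2 at 479, 523 and 534 CPM, which overlapped the UC values given above (log2 fold changes 0.07 and 0.02). With cells matched on pseudotime Zpbp2 and Acr passed as higher, at 0.53 and 0.39, where 762 of 9170 genes were higher and 602 lower at the adjusted p alone. The median of the members was -0.52, against -0.02 over all genes, and it turned to 0.19 without UC 1, where Spaca1 went from -0.85 to 0.72 and 3 members had an unadjusted p under 0.05 but 0 passed.

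In spermatid-like cells of R, 8 members were lower at the adjusted p alone, against 17.3% of all genes, and 0 were higher. By fold and adjusted p 0 of 10 were called, where 6.12% of 15077 genes were called, and DESeq2 also called 0 with 8 lower. The 8 were Lyzl6, Tex36, Spaca1, Spam1, Spaca7, Acrv1, Acr and Zpbp, and the 2 others were Zpbp2 (-0.14 ± 0.08) and Dpy19l2 (0.19 ± 0.10). The median log2 fold change was -0.35 over the members and 0.04 over all genes.

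Lyzl6 was at 450, 446 and 407 CPM in UC, at 314, 460.1 and 436 CPM in VC-R and at 313, 326 and 299 CPM in R. R lay below every UC library but overlapped with VC-R 1, the lowest of its group. The log2 fold change was -0.66 ± 0.08 against UC (SE, adjusted p = 4.10e-07) and -0.53 ± 0.13 against VC-R (adjusted p = 9.84e-03). Tex36 was at 594, 568 and 491 CPM in UC, at 433, 630 and 555 CPM in VC-R and at 394, 436 and 390 CPM in R. It showed the same order, with -0.63 ± 0.09 against UC (adjusted p = 2.32e-06) and -0.57 ± 0.13 against VC-R (adjusted p = 6.37e-03). Spaca1 was at 524, 698 and 631 CPM in VC-R and at 532, 520.2 and 528 CPM in R, with -0.47 ± 0.08 against UC (adjusted p = 4.07e-05) and -0.39 ± 0.11 against VC-R (adjusted p = 0.020).

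These 3 genes were the ones that passed against VC-R, where 1487 of 15123 genes were lower at the adjusted p alone. The remaining 5 were lower against UC by -0.46 ± 0.09 (Spam1), -0.37 ± 0.08 (Spaca7), -0.33 ± 0.08 (Acrv1), -0.30 ± 0.08 (Acr) and -0.23 ± 0.08 (Zpbp), and against VC-R had log2 fold changes of -0.14 to -0.32 with adjusted p from 0.052 to 0.294. With library totals, which moved the median of all genes by 0.19, 5 were lower, where 911 of 15077 genes were, and Dpy19l2 was higher at 0.38. Spermatid-like cells of R held more cells of clusters with few UMIs, 56.5% to 74.1% against 11.6% to 15.2% in UC, and had median ranks of 0.399 to 0.428. Without those clusters 7 members were lower, among them Lyzl6 at -0.50 ± 0.07 and Tex36 at -0.42 ± 0.08, where 728 of 13716 genes were lower. With cells matched on pseudotime 8 were lower, where 1834 of 12022 genes were, with Zpbp2 passing at -0.46 ± 0.09 and Spaca7 (-0.14) not.

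In spermatozoa-like cells of R, 6 members were higher at the adjusted p alone, against 5.39% of all genes, and 0 of 10 were called by fold and adjusted p, where 0.735% of 11565 genes were called; DESeq2 also called 0, and 8 members had an unadjusted p under 0.05. The 6 were Spaca1, Lyzl6, Tex36, Acrv1, Acr and Zpbp. Spaca1 was at 40.6, 34.9 and 43.4 CPM in UC, at 59.0, 34.5 and 19.8 CPM in VC-R and at 64.8, 69.9 and 81.2 CPM in R. R was above all libraries of both control groups, with a log2 fold change of 0.79 ± 0.09 against UC (SE, adjusted p = 6.00e-08) and 0.73 ± 0.17 against VC-R (adjusted p = 0.124). Lyzl6 was at 21.9, 26.0 and 29.2 CPM in UC, at 40.2, 22.5 and 13.8 CPM in VC-R and at 42.6, 41.7 and 51.7 CPM in R. Its log2 fold change was 0.73 ± 0.11 against UC (adjusted p = 3.76e-06) and 0.62 ± 0.17 against VC-R (adjusted p = 0.134).

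By edgeR 0 members passed against VC-R, where 7 had an unadjusted p under 0.05 (DESeq2 was not run there), and with cells matched on pseudotime 1 did, Lyzl6 at 0.50 ± 0.13, where 193 of 9592 genes were higher. R spermatozoa-like cells had median ranks of 0.836 to 0.930 against 0.700 to 0.802 in UC. Spaca7, the member not below the Sertoli-like mean of UC in this class, was at 155, 139 and 155 CPM in UC and at 149, 168 and 161 CPM in R, an overlap with a log2 fold change of 0.02 ± 0.08. In R it was below the Sertoli-like level of 253 ± 38.3 CPM (SD, n = 3). The 6 higher genes were all below the Sertoli-like level in both groups, and the sum of the 10 genes in Sertoli-like cells was 2156 ± 312 CPM in R and 1288 ± 826 CPM in UC (SD, n = 3). The smaller of the pooled Sertoli-like clusters held 10, 18 and 12 of 388, 471 and 2054 such cells in R. In UC it held 2, 13 and 53 of 28, 45 and 94. The part of free RNA and of this mix in the differences between R and UC was not tested.

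**Figure D5:**
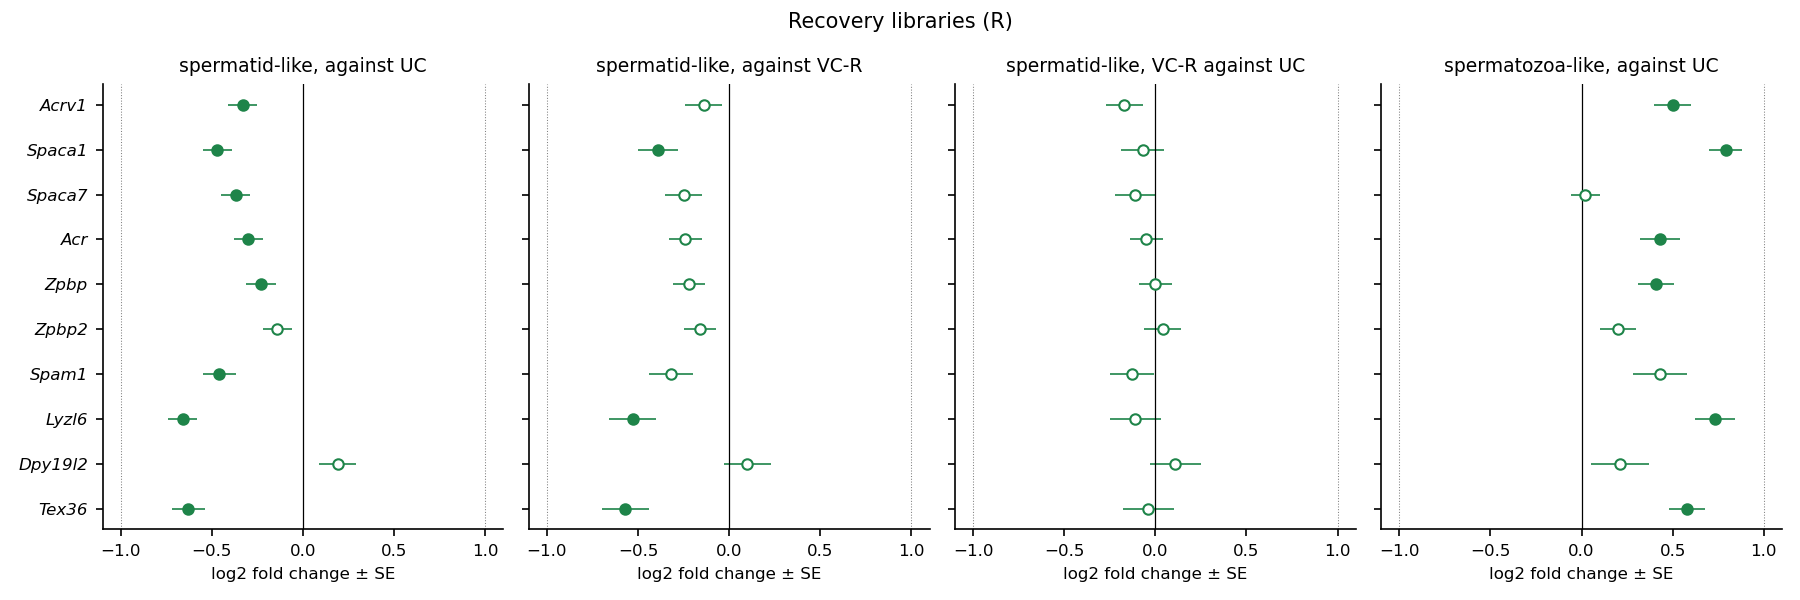
Log2 fold change (± SE, TMM) of R against UC, R against VC-R and VC-R against UC in spermatid-like cells and of R against UC in spermatozoa-like cells, filled where the adjusted p is under 0.05. Lyzl6 is at -0.66, -0.53 and -0.11 in the first 3 panels and at 0.73 in the last, where its levels are below that of Sertoli-like cells; with library totals Zpbp2 in the first panel goes from -0.14 to 0.04.

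No member passed the test for vehicle alone. In spermatid-like cells of VC-T 2 and VC-T 3 against UC 0 of 10 members were called by edgeR, where 0.0367% of 13638 genes were called, and 1 member had an unadjusted p under 0.05, Spam1 at -0.28 ± 0.13 (SE, adjusted p = 0.548). With all 3 VC-T libraries 0 members and 0 genes of 13637 were called by edgeR, and 0 members and 194 genes had an unadjusted p under 0.05. For VC-R against UC 0 of 10 were called in spermatid-like cells, where 0.008% of 12497 genes were called, and 0 members had an unadjusted p under 0.05. In spermatozoa-like cells 0 of 10 were called for VC-R against UC, where 0.0625% of 9606 genes were called, and 1 had an unadjusted p under 0.05, Zpbp2 at -0.40 ± 0.17 (adjusted p = 0.634). DESeq2 was not run on these 3 comparisons. The log2 fold changes of the members lay between -0.28 and 0.11 for spermatid-like cells of both vehicle groups.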

How the data were processed

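The libraries were made with 10x Genomics 3′ chemistry. The authors aligned reads to mm10 and deposited raw UMI counts per gene and barcode. Per the labels this was done with Cell Ranger 3.0.0, and the matrix headers name 7.0.0. Whether intron reads were counted is not given in the sources used here.

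Cells with at least 500 genes, 1000 UMIs and under 30% mitochondrial UMIs were kept, less the 5.4% with the highest Scrublet score per library. Without the members, 2000 variable genes, 30 components and 20 neighbours gave Leiden clusters at resolution 1.2 (Python 3.11.15, scanpy 1.11.5, leidenalg 0.10.2), named from fixed markers. Pseudotime was the rank of the first diffusion component. The windows of spermatid-like cells end at ranks 0.36 and 0.49 and hold equal numbers of cells over all libraries.

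UMIs were summed per library and class with at least 10 cells and tested across all genes with edgeR 4.0.16 (R 4.3.3), quasi-likelihood, filterByExpr, TMM and Benjamini-Hochberg adjustment. The SE is the log2 fold change divided by the root of F. Alternatives were RLE size factors, DESeq2 1.42.0, no filter, doublets kept, another clustering, vehicle controls, leaving out libraries, matching on pseudotime and, chosen after seeing the data, library totals and, for vehicle alone and the difference of the T and R effects, all 3 VC-T libraries. Tested on simulated data for T against UC in spermatid-like cells (13119 genes), the test recovered 96.3% of 200 changed genes with 2 false calls. The members, the list of 32 other acrosome genes and all tests were chosen with earlier results of these data known. All members were named, and of the other list at most 6 called genes by fold and 4 uncalled by level per comparison. Proteins and the promoter of Acr were not used here.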

Additional observations from a re-analysis of the deposited data

Results flagged for a closer look

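The effect of JQ1 at the end of dosing (T against VC-T 2 and VC-T 3) and after withdrawal (R against VC-R) differed in spermatid-like cells for 5 members by a test of the difference itself (edgeR, 4 groups in 1 fit). The difference of log2 effects, T minus R, was 0.90 ± 0.14 for Zpbp2 (SE, adjusted p = 3.96e-05), 0.80 ± 0.18 for Spam1 (adjusted p = 1.19e-03), 0.77 ± 0.18 for Dpy19l2 (adjusted p = 2.06e-03), 0.69 ± 0.21 for Tex36 (adjusted p = 0.0129) and 0.51 ± 0.13 for Zpbp (adjusted p = 4.41e-03). With all 3 VC-T libraries in the fit 0 members passed, where 9.97% of 15360 genes did. An unadjusted p under 0.05 was then found for 5 members, Spaca1, Spam1, Tex36, Zpbp and Zpbp2. In that fit Zpbp2 was at 0.63 ± 0.23 (adjusted p = 0.0787), Spam1 at 0.58 ± 0.25 (adjusted p = 0.115) and Dpy19l2 at 0.42 ± 0.31 (adjusted p = 0.336). Tex36 was at 0.66 ± 0.23 (adjusted p = 0.0724) and Zpbp at 0.42 ± 0.15 (adjusted p = 0.0719). That the 5 genes passed thus rests on leaving out VC-T 1, whereas the size of the difference changed little for Tex36 and was smaller for the others. Among all 15521 genes tested without VC-T 1, 49% passed the same test, so the members stand near that share. Acrv1, at -0.01 ± 0.14, and Spaca7, at 0.11 ± 0.15, did not pass. The median ranks of spermatid-like cells also differed, at 0.350 to 0.434 in T, 0.448 and 0.534 in VC-T 2 and VC-T 3, 0.399 to 0.428 in R and 0.467 to 0.502 in VC-R, and their part in the differences was not tested.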

How the results depend on the processing

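Over single members, 1299 values kept their side of the adjusted p of 0.05, some with another sign where neither value passed, 89 stopped passing, 31 began to pass and 19 changed direction where at least 1 of the values passed. With library totals in place of TMM, 2 members were called in whole T libraries, 7 were higher and 0 lower, and Acrv1 (0.086), Spaca1 (0.36), Spam1 (0.54), Lyzl6 (0.13) and Tex36 (0.33) changed direction. In spermatid-like T cells totals gave 7 higher and 0 lower, with Spaca1 (0.28), Spaca7 (0.046), Acr (0.27), Lyzl6 (0.021) and Tex36 (0.29) reversed, and in the late window 2 called, 9 higher and Acrv1 at 0.32. In R totals left 5 lower in spermatid-like cells. Against VC-T 2 and VC-T 3, 1 member was lower in whole T libraries, 0 in spermatid-like cells, 4 were called in spermatocyte-like cells (Acrv1 1.90, Spaca1 1.92, Spaca7 1.40, Lyzl6 1.97) and 3 in the late window. Against all 3 VC-T, 0 members were higher or lower in whole libraries and spermatid-like cells, 0 were called in spermatocyte-like cells, and 0 were higher in the late window. Against VC-R, 3 were lower in spermatid-like and 0 higher in spermatozoa-like cells. Matching on pseudotime left 0 higher and 0 lower in spermatid-like T cells (Zpbp2 -0.15), 1 called in spermatocyte-like T cells (Spaca1 1.21) and 1 higher in spermatozoa-like R cells. In the late window RLE size factors, DESeq2, no filter and resolution 0.8 each gave 2 higher. The cause was not tested.

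Leaving out single libraries gave 1 (without UC 2) to 3 higher and 3 to 5 lower in whole T libraries, 2 to 3 higher and 3 to 5 (without UC 3) lower in spermatid-like T cells, 0 to 2 called in spermatocyte-like T cells (Acrv1 -0.47 to 1.12, Spaca1 -0.65 to 1.39, the highest without UC 1), 0 to 4 (without UC 3) lower in the middle window, 0 to 1 called and 1 to 6 higher in the late window, 0 called in spermatocyte-like R cells (median -0.85 to 0.19, the highest without UC 1), 7 to 8 lower in spermatid-like and 4 to 7 higher in spermatozoa-like R cells. Correlations of same-numbered deviations ran from -0.382 to 0.684, the highest for replicate 1 in spermatocyte-like cells of T and UC. Differently numbered libraries were not compared, so these values do not decide whether replicate numbers pair the mice. With the replicate block 2 members were higher in the late window and 2 in whole T libraries, 7 were higher in spermatozoa-like R cells, 2 higher and 3 lower in spermatid-like T cells, 8 lower in spermatid-like R cells, all at the adjusted p alone, and by fold and adjusted p together 0 were called in any comparison.

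Depth limits the late window, where T 3 had 39 cells, and every level near that of Sertoli-like cells. Matched spermatocyte-like cells left Spam1 untested in T and in R.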

Other observations

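Within the windows of spermatid-like cells, Acrv1 had another profile in R than in UC, given here as levels with no test. In the early window it was at 702, 563 and 715 CPM in R 1 to R 3, at 429, 487 and 546 CPM in UC and at 448, 494 and 459 CPM in VC-R. In the late window it was at 368, 355 and 303 CPM in R, against 466, 489 and 451 CPM in UC and 366 to 431 CPM in VC-R. R was thus above both control groups early, and late it was below UC and overlapped with VC-R. Its mean peaked in bin 11, at 818 CPM, against bin 26 in UC. VC-T 2, a vehicle library, was as high in the early window, at 763 CPM, whereas VC-T 3 was at 417 CPM. Clusters with few UMIs made up 75.3% to 91.6% of early-window cells in R and 87.1% in VC-T 2, against 21.0% to 33.6% in UC and 11.0% in VC-T 3, and their part in these levels was not tested. Zpbp2 went the other way in the same cells, at 414, 468 and 358 CPM in R and 380.0 CPM in VC-T 2, against 651, 610 and 549 CPM in UC.

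In spermatogonia-like cells, ahead of the stages at which these genes were read, the 10 genes summed to 740 ± 259 CPM in T, 612 ± 64.2 CPM in R, 419 ± 161 CPM in VC-R and 318 ± 49.1 CPM in UC (SD, n = 3). VC-T was at 463 ± 285 CPM, with 791 CPM in VC-T 1 and 277 and 322 CPM in VC-T 2 and VC-T 3. All of these were below the mean sum in UC Sertoli-like cells, 1288 ± 826 CPM, whose libraries ran from 679 to 2228 CPM.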
